A study of Mus musculus with 2 samples.

Results

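The T cell receptor gene segments are the variable (V), diversity (D), joining (J) and constant (C) pieces from which T cells assemble their antigen receptors. They were taken as the 226 genes that GENCODE M21 classes as T cell receptor V, D, J or C genes, out of 55450 annotated genes. They comprised 144 V, 4 D, 70 J and 8 C segments in 3 spans: Tra, which holds Trd inside it (chr14:52407928-54244206), Trb (chr6:40871229-41578452) and Trg (chr13:19158024-19372756), each with 20 kb added on either side. All positions are GRCm38 (mm10) and counted from 1. The 10 segments of Trg that carry gamma symbols of the form Tcrg were counted with Trg, and 2 V segments with clone names (C920008G01Rik and B230359F08Rik) were counted with Tra by position. In an ATAC-seq list of 29415 accessible regions, 46 regions overlapped a segment or lay within a span: 26 in Tra and Trd, 16 in Trb and 4 in Trg.

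A T cell builds its receptor genes by cutting and joining DNA. The Rag1 and Rag2 recombinase cuts beside short recombination signals, a heptamer and a nonamer separated by a spacer, and the cell's end-joining enzymes fuse a V segment to a J segment, with a D segment between them in the beta and delta chains. The alpha and beta chains make the receptor of most T cells and the gamma and delta chains make the receptor of another lineage. Joining usually removes the DNA between the joined segments, so that a joined Tra allele has lost the Trd segments that lay in between. Each V segment has its own promoter, and enhancers near the C segments drive both recombination in the thymus and transcription in mature cells.

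ATAC-seq, which marks open chromatin by the insertion of adapters with Tn5 transposase, was done on inflammation-experienced regulatory T-cells. They came from a male adult mouse (6 months) of the strain Foxp3CreERT2 x Rosa26YFP, in which Foxp3 drives an inducible Cre and Rosa26 carries a YFP reporter. The labels call them primary cells that originated from a bone marrow hematopoietic cell and state neither the inflammation nor the isolation. Both samples are technical replicates from 1 biological replicate, a group of 2 samples, so there was no comparison between conditions and no spread between mice. Results are from the IDR-thresholded list (IDR stands for irreproducible discovery rate), which keeps peaks that rank alike in separate sets of reads, unless the longer pseudoreplicated list is named. The peak lists pool both libraries, give no read counts, and leave depth unknown, and each fold enrichment (over a background) and −log10 p is the authors' own value for the peak.

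The label was checked against promoter regions, that is, regions no farther than 1000 bp from the start of a protein-coding transcript. Such a region was present at 4 of 4 Treg markers (Foxp3, Il2ra, Ctla4 and Ikzf2) and 6 of 7 T cell markers, with Cd4 the exception, against 10861 of 21866 protein-coding genes (49.7%). It was present at 1 of 5 B cell markers (Pax5), 1 of 2 CD8 genes (Cd8b1), 0 of 3 gamma delta T cell markers, 0 of 3 myeloid markers and 0 of 4 thymocyte markers. A peak list holds no measure of how many cells of each type were present, and the part of other cells in the results was not tested.

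The sequences of the segments and regions on which the results turn are given here as GRCm38 has them, 5′ to 3′. The D segments show the recombination signals in full. Capitals mark the D segment, which lies between a heptamer on each side:
Trbd1, chr6:41533161-41533252, + strand: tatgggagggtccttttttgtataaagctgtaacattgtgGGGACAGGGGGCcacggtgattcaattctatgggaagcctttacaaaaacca
Trbd2, chr6:41542123-41542216, + strand: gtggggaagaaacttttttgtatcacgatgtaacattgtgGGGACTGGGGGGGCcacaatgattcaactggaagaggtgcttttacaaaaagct
Trdd1, chr14:54113428-54113518, + strand: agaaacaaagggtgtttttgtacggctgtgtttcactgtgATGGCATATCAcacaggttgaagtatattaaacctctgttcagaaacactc
Trdd2, chr14:54122186-54122281, + strand: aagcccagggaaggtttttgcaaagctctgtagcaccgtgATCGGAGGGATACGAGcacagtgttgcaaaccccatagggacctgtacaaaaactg

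The strongest regions outside segments by −log10 p lay on the C side of Tra and Trb, and 151 bases centred on their summits are shown with capitals at matches to the ETS letters AGGAAG, the RUNX letters TGTGGT, the TCF/LEF letters CTTTGA, the GATA letters AGATAA and the CRE-like letters TGACNTCA, on either strand. The Trbv23 line shows the 120 bases before and 30 after the start of the segment whose region had the greatest fold, with the same capitals:
First region beyond Trac, chr14:54227539-54227689, + strand: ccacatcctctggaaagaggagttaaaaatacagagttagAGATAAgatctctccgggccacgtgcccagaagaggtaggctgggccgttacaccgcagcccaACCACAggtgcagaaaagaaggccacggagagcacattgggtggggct
Second strong region beyond Trac, chr14:54233387-54233537, + strand: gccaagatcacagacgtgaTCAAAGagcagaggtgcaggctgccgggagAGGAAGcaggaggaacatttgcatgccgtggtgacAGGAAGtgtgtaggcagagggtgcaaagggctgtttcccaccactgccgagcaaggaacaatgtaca
Region between Trbc2 and Trbv31, chr6:41554471-41554621, + strand: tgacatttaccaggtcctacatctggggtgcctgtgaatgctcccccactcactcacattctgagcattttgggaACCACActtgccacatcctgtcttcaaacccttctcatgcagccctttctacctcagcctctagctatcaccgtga
Trbv23, chr6:41215953-41216102, + strand: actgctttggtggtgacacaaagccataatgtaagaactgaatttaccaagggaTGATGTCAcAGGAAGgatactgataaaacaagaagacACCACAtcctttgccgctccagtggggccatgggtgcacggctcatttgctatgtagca

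The Trav15 copies are shown because single V segments of Tra are hard to tell apart. The lines give 121 bases at the summit of the Trav15n-1 region and the best match in the regions of its copies, and hold no match to the motifs named for the regions before them:
Trav15n-1, chr14:53174159-53174279, + strand: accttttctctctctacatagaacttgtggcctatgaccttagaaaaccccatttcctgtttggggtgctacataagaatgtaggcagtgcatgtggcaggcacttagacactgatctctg
Trav15d-1-dv6d-1, chr14:52863199-52863319, + strand: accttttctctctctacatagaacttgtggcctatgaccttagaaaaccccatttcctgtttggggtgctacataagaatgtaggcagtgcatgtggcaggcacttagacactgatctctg
Trav15-1-dv6-1, chr14:53559510-53559630, + strand: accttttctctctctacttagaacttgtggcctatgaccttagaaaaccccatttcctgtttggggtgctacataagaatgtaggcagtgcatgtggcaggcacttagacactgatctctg

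Few segments were overlapped by a region. A region overlapped 19 of the 226 segments (8.41%, 95% exact binomial interval 5.14 to 12.8%), against 15296 of the 55224 other GENCODE genes (27.7%), which are longer (median 501 bp for the segments and 3345.5 bp for the other genes). By bases no value was computed for the other genes, so the comparison was with the whole assembled genome. Regions covered 3.44% of the segment sequence and 0.766% of the assembled genome. The 19 overlapped segments were 18 V segments and Trac, the constant segment of the alpha chain. No D segment, no J segment and none of the other 7 C segments was overlapped. In the longer pseudoreplicated list, 55 segments (24.3%) had a region, against 32.4% of the other genes. Whether a segment without a region was closed or had been lost from the DNA of many cells cannot be told apart in a peak list. The intervals here cover counting error only.

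The loci held 1.67 regions per 100 kb (95% exact Poisson interval 1.22 to 2.23), against 1.08 in the rest of the assembled genome and 0.449 (0.298 to 0.649) in the immunoglobulin loci, the antigen receptor genes of B cells. The ratio of 1.55 to the genome became 1.00 when each summit was counted singly; 28.3% of the member regions and 55.9% of all regions had more than 1 summit. Densities were also set per 100 kb of sequence whose 50-mers occur at 1 place in the genome. They were 2.66 in the loci, 1.29 in the rest of the genome and 0.610 in the immunoglobulin loci. Only the length was limited in this way: all regions were counted, including the 7 members with no unique 50-mer. The regions were spread unevenly, as the plot of the 3 loci shows. The V part of Tra had 1.21 per 100 kb and that of Trb 2.05, while the 20 kb beyond Trac had 4 regions (20 per 100 kb) and the 10.1 kb between Trbc2 and Trbv31 had 2 (19.8 per 100 kb).

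**Figure D1:**
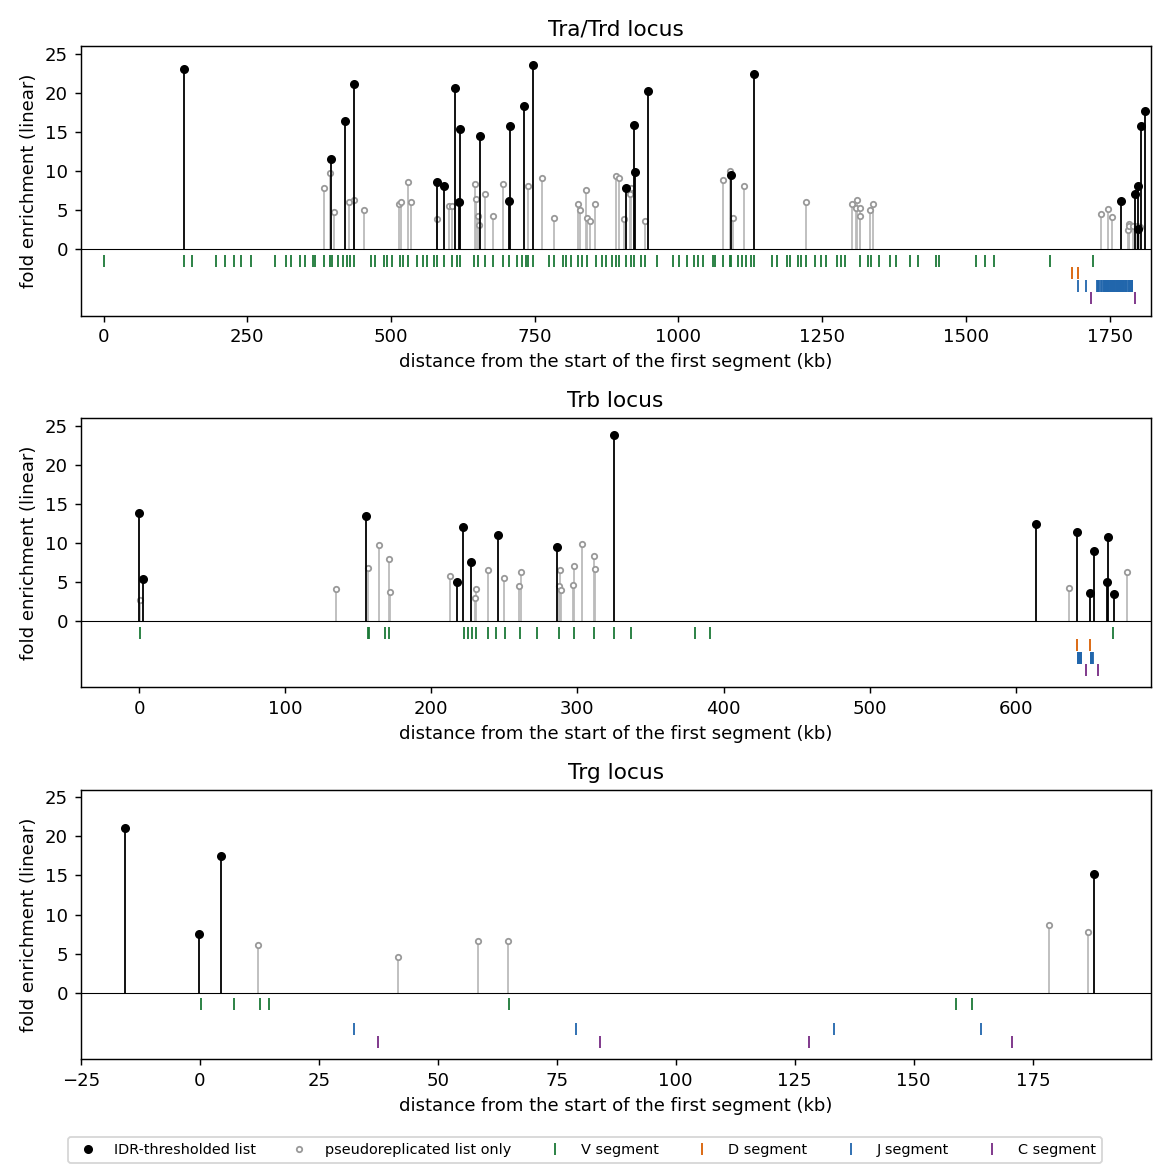
Fold enrichment of each region (linear, as deposited) against distance in kb from the first segment of its locus, with the V, D, J and C segments as ticks under the axis. Filled points are the 46 regions of the IDR-thresholded list and open points the 86 regions found only in the pseudoreplicated list; in Tra no filled point lies in the 637.9 kb between Trav15-1-dv6-1 and Traj22.

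Among V segments of Tra, 12 of 110 (10.9%, 5.77 to 18.3%) had a region. Trav2, the second V segment of the locus by position, had a region at chr14:52566795-52567305 with a fold enrichment of 23.0. The Trav15 copies followed in the same range, with 23.5 at Trav15n-1, 22.4 at Trav15-1-dv6-1 and 21.1 at Trav15d-1-dv6d-1. Trav16n had 2 regions, with folds of 15.9 and 9.90, and Trav16d-dv11 had 1 with 15.3. The folds at Trav11d and Trav11 were 11.6 and 9.51, those at Trav6d-7 and Trav6n-6 were 8.59 and 6.13, and those at C920008G01Rik and Trav13n-3 were 8.09 and 7.83. Apart from C920008G01Rik, whose name gives no family, these V segments came from 6 of 21 Trav families. Trav15 had a region at 3 of 6 segments and Trav16 at 2 of 3, while 0 of 9 Trav12, 0 of 10 Trav9 and 1 of 11 Trav13 segments had one. Segments with dv in the name, which can serve in delta chains as well, had a region at 3 of 10, against 9 of 100 of the others. In the pseudoreplicated list these counts were 6 of 10 and 27 of 100. The split follows names: Trav15n-1 counted with the others, although its region was 100% identical to that of Trav15d-1-dv6d-1 over 495 bp.

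Regions in the Tra V part also lay away from intact V segments. One overlapped the pseudogene Trav15d-3 (fold 14.4) and one the pseudogene Trav11n (fold 15.8). Others had folds of 20.6 at chr14:53039354-53039849, which overlaps an end of the antisense gene Gm30214 with its summit outside the gene, and 20.2 at chr14:53374584-53374913, which lies 4009 bp from Trav14n-3. A pair at chr14:52848048-52848310 and chr14:53159078-53159349 had folds of 16.4 and 18.4. The median fold over the 20 regions of the Tra V part was 15.6, above the 13.1 of all regions, but their median −log10 p of 77.7 was below the 92.5 of all regions.

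The mouse Tra V array holds duplicated blocks, whose copies carry d and n in their names, so the uniqueness of the sequence was counted. In the V part of Tra 49.6% of 50-mers occur at 1 place in the genome, against 85.9% in a sample of the rest of the genome. Of its 20 regions, 7 had no unique 50-mer and 15 had fewer than 50% unique 50-mers. The regions at Trav15d-1-dv6d-1 and Trav15n-1 were 100% identical over 495 bp, and each was 98.3% identical to that of Trav15-1-dv6-1 over 482 bp. Within the windows printed above, the copies differed at 0 and 1 of 121 bases. Trav11d and Trav11 were 100% identical over 394 bp, and the unnamed pair of regions was 100% identical over 263 bp. How the authors placed reads with several best positions is not given in the sources used here. The folds of identical copies therefore need not be independent, and which copy was open is not known. When only V segments with at least 50% unique 50-mers were kept, a choice made after the data were seen, 9 of 75 (12%) had a region, against 12.5% of all 144; within Tra it was 3 of 41 (7.32%).

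In Trb, where the sequence is mostly unique, 5 of 22 V segments (22.7%, 7.82 to 45.4%) had a region. Trbv23 had the greatest fold of all 46 members, 23.7, at chr6:41215537-41216367. Trbv1, the first segment of the locus, had 13.8, Trbv12-1 had 12 and Trbv12-2 had 7.53. Trbv31, which lies beyond the C segments on the opposite strand, had 3.42, among the lowest 0.527% of all regions by fold. A further region with a fold of 13.4 ended 201 bp before Trbv2. With the pseudoreplicated list 15 of the 22 (68.2%) had a region, which added Trbv2, Trbv3, Trbv5, Trbv13-2, Trbv13-3, Trbv15, Trbv16, Trbv19, Trbv20 and Trbv21. In neither list was there a region at Trbv4, Trbv13-1, Trbv14, Trbv17, Trbv26, Trbv29 or Trbv30, of which the last named lie nearest to the D segments on the upstream side.

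In Trg, 1 of 7 V segments had a region. It was Tcrg-V7, with a fold of 7.51 at chr13:19177689-19178116. Higher folds lay outside the segments, with 21.1 at chr13:19162095-19162565 and 17.5 at chr13:19182089-19182811. Both of those lie in the antisense gene Gm31887, the first 15459 bp from Tcrg-V7 and the other 2163 bp from Tcrg-V4. The fourth region, with a fold of 15.2, lay in an intron of Stard3nl, which encodes a lipid transport protein, 12761 bp beyond Tcrg-C4. With the pseudoreplicated list 3 of the 7 V segments (42.9%) had a region, which added Tcrg-V6 and Tcrg-V3.

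In the IDR-thresholded list, most summits at V segments sat at the promoter side. Of the 19 regions that overlapped a V segment, 17 had their summit before the annotated 5′ end, with a median position of −89 bp (quartiles −153.5 and −31 bp, range −461 to 652 bp). The 2 others were the region in Trav13n-3 at 443 bp and the second region at Trav16n at 652 bp. Trbv12-1 and Trbv12-2 had summits at −461 and −458 bp, the farthest upstream, and their regions were 78.6% identical over 476 bp. In the pseudoreplicated list, further regions that overlapped a V segment had summits before its 5′ end. Others had summits past it, some of them beyond the 3′ end. At the other end of the V segments, 141 of 144 were followed by the letters CAC that open a heptamer, and 104 (72.2%) by the full heptamer CACAGTG.

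**Figure D2:**
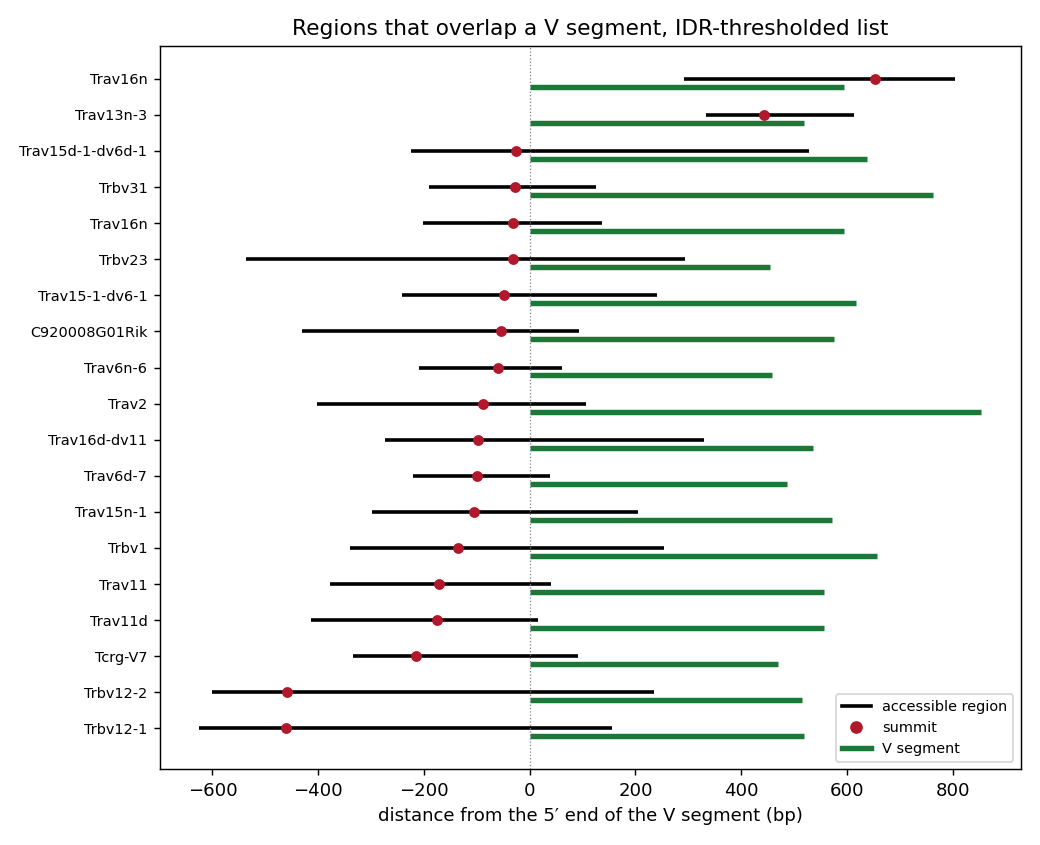
The 19 regions that overlap a V segment, drawn as black lines against distance in bp from the 5′ end of that segment, with the summit as a red point and the segment as a green bar. Summits of 17 regions lie left of 0, and Trav16n appears at 2 heights because it has 2 regions.

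No D segment was itself overlapped, but open chromatin ended just before both D segments of Trb. The region before Trbd1, at chr6:41532208-41533184, was the widest of the members at 977 bp, had a fold of 11.4 and ended 17 bp from the D segment. The region before Trbd2, at chr6:41541631-41542128, had a fold of 3.53 and ended 35 bp from it. It is textbook knowledge that a promoter lies just 5′ of Trbd1 and is used in the first step of beta chain assembly. For Trdd1 and Trdd2 the nearest region was 84273 and 75510 bp away. All 4 D segments had the first 3 letters of a heptamer on both sides.

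None of the 70 J segments had a region (0%, interval up to 5.13%), and in the pseudoreplicated list Traj42, Traj37 and Traj7 did, which is 4.29%. J segments are short, with a median of 60 bp, so a region close by can miss them. When each was widened by 1000 bp on either side, 14.3% had a region. One region lay inside the Tra J array, 444 bp from Traj22, at chr14:54197751-54198247 with a fold of 6.20. In Trb a region with a fold of 8.91 lay at chr6:41544256-41545014, 400 bp beyond Trbj2-7 and 1716 bp before Trbc2.

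Of the C segments, only Trac was overlapped. Its region, chr14:54222218-54222782, had its summit in an intron, a fold of 7.00 and a −log10 p of 184.8. The nearest region lay 1750 bp from Trbc1, 1716 bp from Trbc2 and 48883 bp from Trdc. For the gamma constant segments the distances were 31292 bp at Tcrg-C1, 57966 bp at Tcrg-C2, 78073 bp at Tcrg-C3 and 12761 bp at Tcrg-C4. These distances are for the IDR-thresholded list. The pseudoreplicated list had regions nearer to Tcrg-C1, at 2443 bp (fold 4.55), and to Tcrg-C4, at 3257 bp (fold 8.67).

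Downstream of Trac, toward Dad1, which encodes a subunit of the oligosaccharyltransferase, 4 regions lay within 20 kb. It is known that the enhancer of the alpha chain gene lies in this interval, although whether any region is that enhancer was not tested. The nearest, chr14:54227283-54228131, began 3077 bp beyond Trac and had a fold of 8.09 with a −log10 p of 262.6. A narrow region of 192 bp beside it had the lowest fold of the members, 2.63. The next, chr14:54233160-54233784, had a fold of 15.8 and a −log10 p of 349.1, and the fourth, in an intron of Dad1, had 17.7 and 118.1. In Trb, the interval between Trbc2 and Trbv31 is where the beta chain enhancer is known to lie. It held the region with the greatest −log10 p of all members, 460.4, at chr6:41554295-41555144 with a fold of 10.7, and a narrower neighbour at chr6:41553359-41553681 with a fold of 4.97 and a −log10 p of 113.7.

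Regions at the J and C ends of Tra and Trb were grouped, with those before Trbd1 and Trbd2 but without that at Trbv31. These 11 regions varied in fold and −log10 p. For each, the regions of the whole list with a fold as low or lower and a −log10 p as high or higher were counted, that region included. The counts were 9 for Trac, 7 for the region next beyond it, 4 and 6 for the regions between Trbc2 and Trbv31, 84 before Trbd2, 173 beyond Trbj2-7, 290 for chr14:54233160-54233784, 1030 near Traj22, 1365 before Trbd1 and 5969 for the Dad1 intron region, of 29415. The 192 bp region beyond Trac had a count of 4 but was low on both measures, with a −log10 p of 24.5. The region at chr14:54233160-54233784 and that in the Dad1 intron had folds above the median of all regions. Over these 11 regions, a grouping by position made after the values were seen, the median fold was 8.09 and the median −log10 p 118.1. Over the 35 remaining members the medians were 13.4 and 73.4, and over all regions 13.1 and 92.5. Over all 46 members the median fold was 11.5, at the 39.6th percentile of all regions, and the median −log10 p was 80.3. The members were narrower than all regions, with a median of 497.5 bp against 659 bp. What the caller used as background for the fold is not stated, and its part in these values was not tested.

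**Figure D3:**
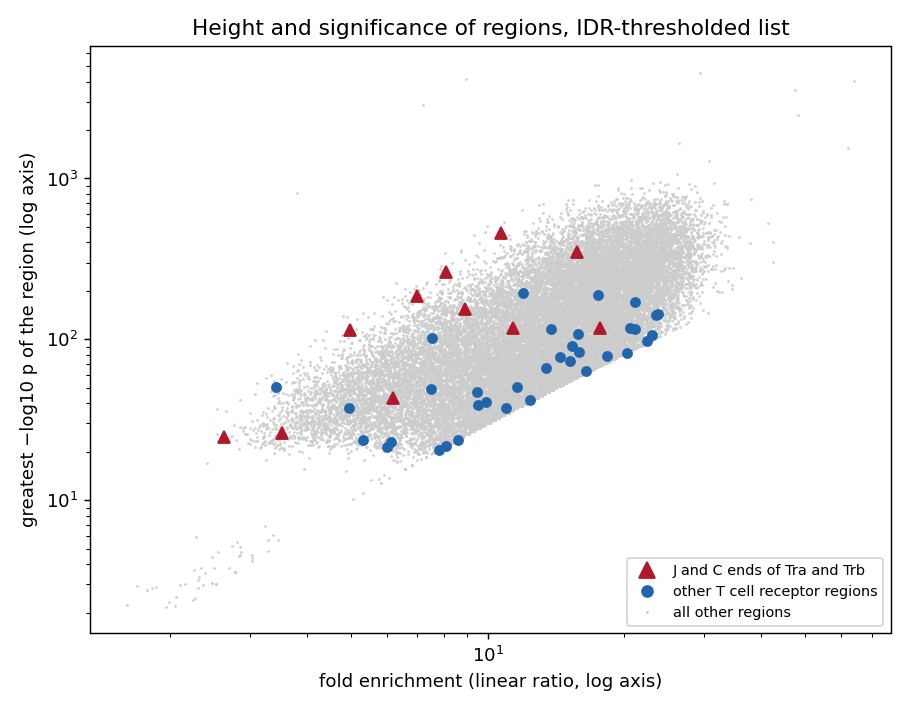
Fold enrichment (log axis) against the greatest −log10 p of each region (log axis) in the IDR-thresholded list. Red triangles are the 11 regions grouped at the J and C ends of Tra and Trb. They include the regions before Trbd1 and Trbd2 but not that at Trbv31. Blue points are the other 35 members and grey points all other regions. The triangle at −log10 p 460.4 is the region between Trbc2 and Trbv31.

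The delta segments lay in a stretch with no region. None of the 10 Trd segments (5 V, 2 D, 2 J and Trdc) had one in either list. No region of either list lay in the 267.7 kb from the first to the last of them. There the density of the genome in the IDR-thresholded list would give 2.89. On the density scale used for the loci, the exact Poisson interval of this stretch ran from 0 to 1.38. It contains the 1.08 of the rest of the genome, so the lack of regions in that list was within counting error. That comparison does not cover the pseudoreplicated list, which held 52840 regions in the rest of the genome, against 29369. Its lack of regions in the delta stretch was not set against its own density. That stretch is part of the longest gap of the IDR-thresholded list, chr14:53559873-54197750. This gap spans 637.9 kb and 67 segments: 28 V, 2 D, 36 J and 1 C. Uniqueness was high in the delta stretch, at 88.0% of 50-mers. In the pseudoreplicated list the longest gap was 397 kb and held 22 segments. In Trg the 182.7 kb beyond the region near Tcrg-V4 held 14 segments and no region of the IDR-thresholded list. The longest gap of Trg in the pseudoreplicated list was 113.1 kb and held 8 segments. In Trb the longest gap was 288.5 kb in both lists. It holds 3 V segments and most of the trypsinogen genes between the V and D segments, but not Prss2.

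V segments of the T cell receptors had a region in 12.5% (7.58 to 19%), against 11 of 218 immunoglobulin V segments (5.05%, 2.55 to 8.85%). In the pseudoreplicated list the shares were 35.4% and 14.7%. V segments annotated as T cell receptor pseudogenes had a region in 2 of 34. By bases, regions covered 4.16% of the T cell receptor V sequence, 2.38% of the immunoglobulin V sequence and 0.766% of the assembled genome. Of the 28 regions in the immunoglobulin loci, 25 lay in Igh, 3 in Igk and 0 in Igl. Sequence uniqueness differed as well, at 62.8% of 50-mers in the T cell receptor loci and 73.6% in the immunoglobulin loci, and its part in the difference was not tested.

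**Figure D4:**
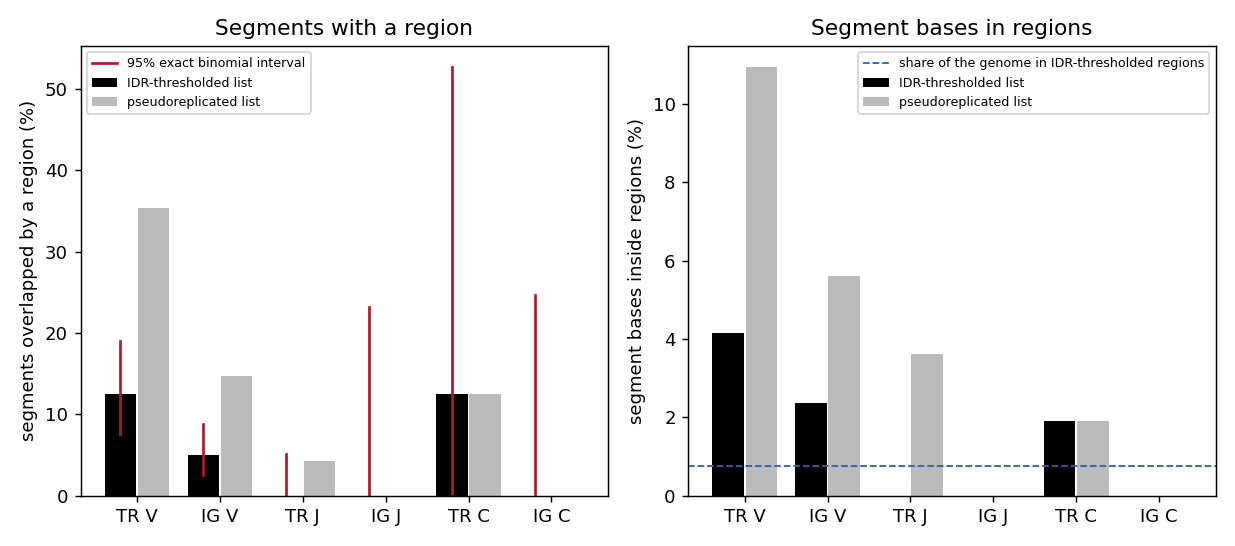
Share of segments overlapped by a region (left, %, with 95% exact binomial intervals in red) and share of segment bases inside regions (right, %), for T cell receptor (TR) and immunoglobulin (IG) V, J and C segments in both lists. TR V segments are at 12.5% and IG V segments at 5.05% in the IDR-thresholded list, and the dashed line marks the 0.766% of the genome inside its regions.

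The number of regions in the IDR-thresholded list was set against that in the pseudoreplicated list, each list merged on its own. It was 34.9% of the 132 in the loci, 55.6% in the rest of the genome and 32.6% in the immunoglobulin loci. Regions were matched between the lists in the T cell receptor loci only. The 86 pseudoreplicated regions there that were not in the IDR-thresholded list had a median fold of 5.81. At the summit of greatest fold, the −log10 p was compared between the 2 read sets that the IDR procedure ranks. It differed by less than 2-fold in 46 of 46 members (ratios 0.549 to 1.70) and in 98.7% of the other regions. The list keeps peaks that rank alike in such sets, so this agreement was largely set by the choice of list. The spans end at 20 kb from the outermost segments. The regions nearest to that bound were, inside, the Dad1 intron region with a fold of 17.7 at 4.62 kb from it and, in Trg, the region with a fold of 21.1 at 4.07 kb. The nearest outside was at chr14:54253501-54254261, 9.30 kb beyond, with a fold of 25.8, in the promoter window of Dad1.

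Of 15 sequence motifs searched on both strands within 150 bp of the summit, 8 were found in members at more than 1.5 times their share in all regions. RUNX factors act throughout T cell development, and the RUNX letters TGTGGT occurred in 23 of 46 members (50%, 34.9 to 65.1%) and in 25.8% of all regions. The CRE-like letters TGACNTCA, a motif long known from V promoters of the beta chain, occurred in 19.6% of members and 7.69% of all regions. The TCF/LEF letters CTTTGA were in 32.6% and 19.1%, the GATA letters AGATAA in 21.7% and 11.6%, the STAT letters TTCNNNGAA in 17.4% and 9.14%, and the E-box letters CACCTG in 32.6% and 21.2%. The heptamer letters CACAGTG were in 19.6% of members and 8.15% of all regions, and the nonamer letters ACAAAAACC in 4.35% and 0.673%. Both belong to the recombination signals beside the segments by which members were chosen. Their shares are therefore not independent of that choice. The ETS letters AGGAAG were in 47.8% and 46.8%, and the E-box letters CAGCTG were in 17.4% and 17.1%. AP-1 TGANTCA was in 15.2% and 12.1% and Ikaros TGGGAA in 23.9% and 20.8%. Lower in members were the ETS letters CCGGAA (4.35% and 17.4%), NF-kB GGGNNNTCC (6.52% and 18.4%) and a CTCF-like motif (6.52% and 15.6%). The intervals of CCGGAA (0.531 to 14.8%) and NF-kB (1.37 to 17.9%) lay below the share of all regions. That of the CTCF-like motif (1.37 to 17.9%) contained it. The 95% exact binomial intervals of the member shares lay above the share of all regions for RUNX, the CRE-like letters (9.36 to 33.9%), TCF/LEF (19.5 to 48.0%) and the heptamer (9.36 to 33.9%). They contained it for GATA (10.95 to 36.4%), STAT (7.82 to 31.4%), CACCTG (19.5 to 48.0%) and the nonamer (0.531 to 14.8%), which rests on 2 regions. Since copies in Tra share sequence, the members are not independent, and a match is only a match of letters. The intervals count each copy as a separate trial. The RUNX, CRE-like and TCF/LEF letters all occurred at Trav11d, at Trav11 and at the Trav11n region, which were 94.1 to 100% identical. Whether these excesses hold with each copied sequence counted once was not tested. With a 50 bp window RUNX was in 21.7% of members and 13.7% of all regions, and TCF/LEF in 8.70% and 7.17%.

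The genes that act on these segments were read at their promoters. Of 12 genes of the recombinase and end joining, 8 had a promoter region, against 49.7% of protein-coding genes. The recombinase genes Rag1 and Rag2 and Dntt, which adds bases at the junctions, had none, nor had Nhej1, an end-joining factor. The end-joining genes Prkdc, Dclre1c, Xrcc4, Xrcc5, Xrcc6 and Lig4 had folds between 12.5 at Lig4 and 24.3 at Xrcc4, and Hmgb1 and Hmgb2, which bend DNA for the recombinase, had 18.4 and 21.7. Of the 5 genes of receptor assembly, the CD3 genes Cd3e (14.2), Cd3d (12.9) and Cd3g (15.4) and the zeta chain gene Cd247 (13.8) had one, and Ptcra, which encodes the surrogate alpha chain of thymocytes, had none.

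Of 21 other protein-coding genes in the spans, 2 had a promoter region, against 49.7% of all protein-coding genes. They were Dad1 and Stard3nl, and both of those regions lie beyond the 20 kb bound. The 4 olfactory receptor genes beside the first V segments of Tra had none. Nor had the 7 genes within Trb with trypsinogen (Try) or serine protease (Prss) symbols. Among noncoding genes, the antisense gene Gm31887 of Trg was overlapped by 3 regions.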

How the data were processed

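Per the labels, ATAC-seq libraries from 2 technical replicates of 1 biological replicate were sequenced, and the same 3 peak lists on mm10 are given for both, so they were taken to pool them. By the order of the columns, the authors deposited for each peak a score, a fold enrichment (linear ratio) over a background that is not stated, and −log10 p and q values; the ranked list adds −log10 p in 2 sets of reads. They served to describe and rank peaks within a list, not to test. The sources used here name no aligner, peak caller, version, read filter or Tn5 shift, and depth is unknown. The lowest score in the IDR-thresholded list was 540.

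Overlapping or touching peaks (58138 rows) were merged, and the peak of greatest fold gave fold and summit. Segments came from GENCODE M21. Shares have 95% exact binomial (Clopper-Pearson) and densities 95% exact Poisson intervals, for counting error only. The uniqueness of 50-mers and 100-mers was counted over the 21 assembled chromosomes of GRCm38. Regions were aligned to each other with BLAST 2.17.0; other steps used Python 3.11.15, pandas 2.3.3, numpy 2.4.6 and scipy 1.17.1. Overlaps, motif matching and the 50-mer count were tested on simulated data.

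No p-value was computed. Genes named are all C and D segments, all segments with a region, the 10 regions of greatest fold, the 3 greatest per locus, the widest, protein-coding genes whose promoter window held a member region (0 were found), and other genes chosen for their role; segments found only in the pseudoreplicated list, and regions near C segments, were named after their values were seen. Members, lists and motifs were chosen with earlier results of these data known. Scart2 was not matched. Alternatives were the other lists, the upper 50% of regions by fold, summits counted singly, other flanks, windows and denominators, and −log10 p in place of fold.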

Additional observations from a re-analysis of the deposited data

How the results depend on the processing

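No paired analysis was possible because the lists pool both libraries, and for the same reason no replicate could be left out; the depth and the spread between libraries are unknown, so intervals cover counting only. Of 130 alternative values, 82 stayed within the interval of the reported value or within 1.5 times a reported count, and 48 moved. The pseudoreplicated list held 132 regions in the loci (83 in Tra and Trd, 39 in Trb, 10 in Trg), the IDR-ranked list 134 (84, 39 and 11), and the upper 50% by fold 20 (14, 3 and 3); without the flank Trg held 2. The share of segments with a region was 24.3% in the pseudoreplicated and the ranked list and 3.54% in the upper 50%, and 14.6% with segments widened by 1000 bp and 0.885% with the summit inside the segment. For V segments it was 35.4% in both longer lists, 5.56% in the upper 50% and 0.694% with the summit inside. For Tra V segments it was 30%, 5.46% and 0.909% in the same order, and for Trb V segments 68.2% in both longer lists and 0% with the summit inside. J segments widened by 1000 bp gave 14.3%, and C segments in the upper 50% gave 0%. The density ratio to the rest of the genome was 2.47 in both longer lists and 1.00 with summits counted singly; the 7 densities set against the immunoglobulin loci ran from 3.23 to 4.44 times. In the pseudoreplicated list 4 motifs exceeded 1.5 times the share of all regions, in place of 8, and RUNX was not among them (40.2% and 27.1%). Promoter regions in that list were found at 2 B cell, 1 gamma delta T cell and 1 myeloid marker, and with a 2000 bp window at 1 thymocyte marker. Causes of these shifts were not tested, apart from the number of regions, which each list or limit sets.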
